A study of Mus musculus with 6 samples.

Results

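The macrophage and leukocyte marker genes described here are Ptprc, Laptm5, Csf1r, Ccr2, Cx3cr1, Fcer1g, Tyrobp, Adgre1, Cd68 and Aif1. They were measured in rhombomere 4 of the mouse hindbrain at embryonic stage E10.5. Members were taken by symbol: each probe set of the Affymetrix GeneChip 430A whose annotation gave a single gene, and that gene one of the 10. This found 17 probe sets among the 22626 tested, with at least 1 for each member, so that 10 of the 12393 genes named by the array are described. The 3 Hoxb1 mutant arrays carried RNA from embryos mutant for Hoxb1, a homeobox gene that gives rhombomere 4 its identity, and the 3 wild-type arrays carried RNA from normal embryos of the same stage. Each array was hybridised with RNA of a separate pool of dissected segments from several embryos, stated by the submitters to be an independent biological replicate. Neither the labels nor the design text names the mutant allele or the strain. The dissected tissue was mainly rhombomere 4 and also held surrounding branchial arch tissue. The comparison asks whether transcripts of resident leukocytes in this tissue differed between the groups.

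Macrophages are the first leukocytes to enter the embryonic nervous system. They arise from progenitors in the yolk sac, reach the head through blood and mesenchyme before the bone marrow exists, and those that settle in the neural tube become microglia. Their survival depends on signals through the receptor encoded by Csf1r, and they clear dying cells. In a bulk tissue sample such cells are a small minority, so their transcripts are diluted by those of neural, mesenchymal and vascular cells.

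The array values are intensities in arbitrary units. Differences are mutant minus wild type in log2(intensity + 16), and for dim probe sets this makes a change look smaller than it is. Groups were compared with limma over all probe sets, with p-values adjusted over all of them and a threshold of 0.05. Bacterial control probe sets, which have no mouse target, serve here as the measure of background: 95% of their values were at most 61.5, and the brightest was 122. The probe set of Hoxb1 gave 60.8, 35.3 and 50.03 in mutants against 341, 378 and 588 in wild type, at least 6.88-fold lower in mutants (limma adjusted p = 0.0695). Its position relative to the mutation is unknown here. Wild-type replicates 2 and 3 stood apart by their 18S ribosomal RNA signal, which averaged 12.1 and 11.3 in log2, whereas the remaining 4 arrays had 6.36 to 7.03. Differences without both of these arrays, which leaves 1 wild-type array, are given beside the results they move most.

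No marker of macrophages or other leukocytes passed the threshold in Hoxb1 mutants. Of the 17 probe sets, 0 had a limma adjusted p under 0.05, as did 0.0% of all probe sets tested, and the adjusted p of the members ran from 0.428 to 0.995. An unadjusted p under 0.05 was reached by 1 member probe set, of Ccr2, which is 5.88% of the 17, against 5.76% of all probe sets (3.88% lower in mutants and 1.88% higher). The groups did not overlap in 2 member probe sets, of Ccr2 and Csf1r, or 11.8%, against 12% of all probe sets (7.08% lower in mutants and 4.88% higher). Both shares lay near the background, though both of these probe sets were lower in mutants, where the matching share was the 7.08%. In bulk tissue, fewer leukocytes and less of a transcript per leukocyte cannot be told apart.

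Most members gave signal above the background in both groups. Of the 51 values in each group, 37 in mutants and 38 in wild type were above the bacterial 95th percentile. All 6 arrays were above it in 10 of the 17 probe sets, against 68.2% of all probe sets, and in 6 of the 10 genes taken by their brightest probe set, against 73.1% of all genes. Those genes were Csf1r, Tyrobp, Adgre1, Cd68, Laptm5 and Cx3cr1. Ptprc, Aif1 and Fcer1g were above it on some arrays, and all 3 probe sets of Ccr2 stayed below it on every array. Signal above background was thus measured for most macrophage genes in the dissected tissue, which does not show which cells gave it.

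**Figure D1:**
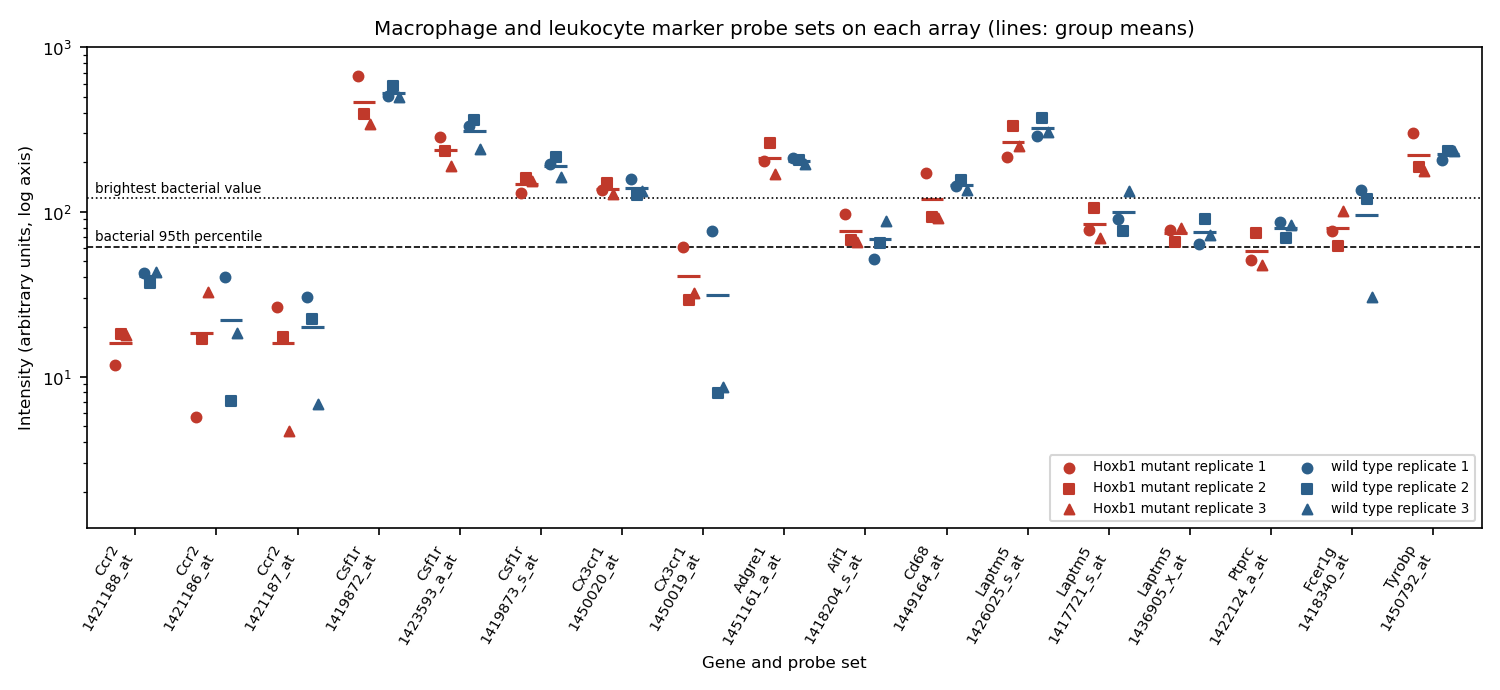
Intensity of each marker probe set on each array, on a log axis, with Hoxb1 mutant arrays left of wild-type arrays and lines at the group means. The dashed and dotted lines are the bacterial 95th percentile of 61.5 and the highest bacterial value of 122, and the 3 Ccr2 probe sets lie below the dashed line on all arrays.

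Ptprc encodes CD45, the receptor tyrosine phosphatase on the surface of leukocytes and their precursors. Its probe set 1422124_a_at gave 50.9, 74.5 and 47.7 in mutants against 86.1, 69.1 and 83.0 in wild type. Mutant replicates 1 and 3 were below every wild-type array, and mutant replicate 2 lay above wild-type replicate 2. The log2 difference was -0.39 (SE 0.17, 95% interval -0.79 to 0.02, limma adjusted p = 0.833). Only 1 mutant array was above the bacterial 95th percentile, against 3 wild-type arrays, so the mutant level lies close to what this array can resolve.

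Laptm5, a lysosomal membrane protein of haematopoietic cells that limits signalling by immune receptors, was read by 3 probe sets. The brightest, 1426025_s_at, gave 216, 332 and 252 in mutants against 287, 371 and 304 in wild type, with overlapping groups and a log2 difference of -0.27 (SE 0.18). That difference ran from -0.43 without mutant replicate 2 to -0.13 without mutant replicate 1, and was -0.12 without wild-type replicates 2 and 3. The others, 1417721_s_at and 1436905_x_at, averaged 84.1 ± 18.9 and 74.3 ± 7.68 in mutants (SD, n = 3), against 100.05 ± 30.2 and 75.5 ± 13.4 in wild type. Their log2 differences were -0.20 and -0.01 (SE 0.22 and 0.15). Suffixes such as _s_at and _x_at mark probes that may bind more than a single transcript, and the dimmest of the 3 showed almost no difference.

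Csf1r, the receptor for the growth factors Csf1 and Il34, was above the brightest bacterial value on every array and had a lower mutant mean in all 3 of its probe sets. Probe set 1419872_at gave 666, 390.3 and 341 in mutants against 501, 579.9 and 495 in wild type. Mutant replicate 1 was the highest of the 6 arrays and the other mutant arrays the lowest. Probe set 1423593_a_at gave 284, 235 and 190.1 in mutants against 332, 359 and 242 in wild type, where mutant replicate 1 fell inside the wild-type range. In 1419873_s_at, 129.7, 161 and 153 in mutants lay below 194, 214 and 163 in wild type, without overlap. The log2 differences were -0.22, -0.37 and -0.33 (SE 0.25, 0.20 and 0.14), and each 95% interval held 0, with limma adjusted p of 0.902, 0.833 and 0.833. The 3 probe sets read the same RNA samples and are not replicates.

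Leaving out single arrays moved Csf1r most in its brightest probe set. Without mutant replicate 1 the log2 difference of 1419872_at was -0.50 and without mutant replicate 3 it was -0.04, neither past the adjusted threshold. Over the same 6 fits the difference of 1423593_a_at ran from -0.53 to -0.23 and that of 1419873_s_at from -0.43 to -0.25.

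Ccr2, a chemokine receptor of monocytes that binds Ccl2, carried the smallest p of the members. Probe set 1421188_at gave 11.7, 18.1 and 17.97 in mutants against 42.5, 37.2 and 43.0 in wild type. All mutant arrays were below all wild-type arrays, and all 6 values were below the bacterial 95th percentile, so no fold is given. The log2 difference was -0.84 (SE 0.13, 95% interval -1.15 to -0.53), with an unadjusted limma p of 0.000421 and an adjusted p of 0.428. With a pseudocount of 1 the difference was -1.33 and with 64 it was -0.39, neither past the adjusted threshold. The other probe sets of Ccr2 did not share this separation. Probe set 1421186_at gave 5.65, 16.9 and 32.7 in mutants against 40.4, 7.11 and 18.4 in wild type, and 1421187_at gave 26.2, 17.3 and 4.68 against 30.4, 22.4 and 6.81. Their log2 differences were -0.12 and -0.16 (SE 0.40 and 0.35).

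Cx3cr1, the receptor for the chemokine fractalkine and a marker of microglia, showed the narrowest interval of the members in its brighter probe set. There 1450020_at gave 135, 149 and 129 in mutants against 159, 126 and 133 in wild type. The log2 difference was -0.01 (SE 0.13), with a 95% interval of -0.32 to 0.29. The dimmer 1450019_at gave 61.0, 29.0 and 32.1 in mutants against 76.7, 7.91 and 8.59 in wild type. Its highest array and both its lowest arrays were wild type, and the low values were those of replicates 2 and 3, the arrays with high 18S signal. Its log2 difference was 0.54 (SE 0.54), and -0.75 without those arrays. What part the 18S signal has in it was not tested.

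Fcer1g and Tyrobp encode short membrane adaptors that carry an immunoreceptor tyrosine-based activation motif, through which Fc receptors, Trem2 and related receptors signal in myeloid cells. Fcer1g gave 76.7, 62.2 and 100.4 in mutants against 136, 120.1 and 30.6 in wild type (1418340_at). Wild-type replicate 3 was the lowest array and the other wild-type arrays the highest, so the spread within wild type exceeded the difference between groups (log2 difference -0.06, SE 0.45). Without wild-type replicate 3 the difference was -0.61. Tyrobp gave 301, 188 and 177 in mutants against 205, 234 and 233 in wild type (1450792_at), with a log2 difference of -0.05 (SE 0.21). As in Csf1r 1419872_at, but not in the other Csf1r probe sets, mutant replicate 1 was the highest array and the other mutant arrays were the lowest.

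Adgre1 encodes F4/80, a surface receptor long used to recognise mouse macrophages. It gave 203, 261 and 169.7 in mutants against 211, 205 and 195 in wild type (1451161_a_at), and the mutant arrays held both the highest and the lowest value (log2 difference 0.03, SE 0.16). Cd68, a lysosomal glycoprotein of phagocytes, gave 173, 93.5 and 91.6 in mutants against 143, 156 and 136 in wild type (1449164_at). Mutant replicate 1 was again above every wild-type array and mutant replicates 2 and 3 were below them all. The log2 difference of Cd68 was -0.30 (SE 0.23), and it rested on single mutant arrays. It was -0.57 without mutant replicate 1, -0.17 without mutant replicate 2 and -0.16 without mutant replicate 3, none past the adjusted threshold. Aif1 encodes the calcium-binding protein Iba1, a cytoplasmic marker of macrophages and microglia. It gave 96.8, 67.5 and 65.9 in mutants against 51.4, 64.6 and 88.4 in wild type (1418204_s_at), with a log2 difference of 0.15 (SE 0.21).

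**Figure D2:**
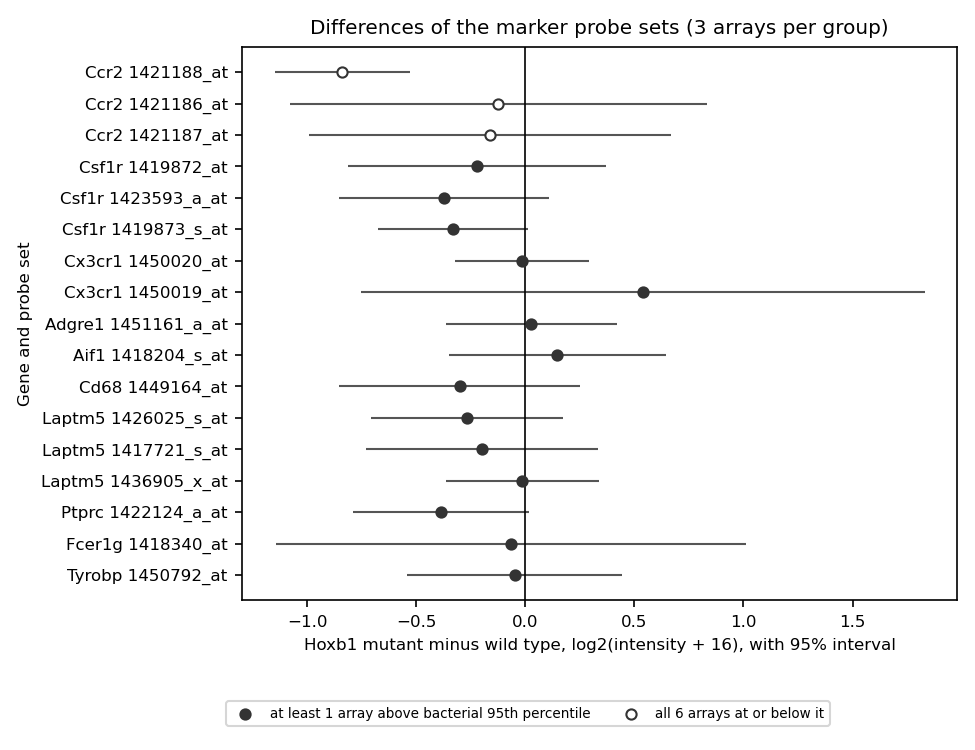
Difference between Hoxb1 mutant and wild type for each marker probe set, on the scale of log2(intensity + 16), with the 95% interval of the limma fit. Of the 17 intervals, 16 hold 0, and the exception is Ccr2 1421188_at at -0.84, whose values all lay under the bacterial 95th percentile (open circle).

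Taken gene by gene with the brightest probe set, 8 of the 10 members had a lower mean in mutants and 2, Adgre1 and Aif1, a higher one. Over all genes the share with a lower mean was 54.5%, and over genes in the members' range of mean intensity it was 59.0%. The members' median log2 difference was -0.14, with a range of -0.84 to 0.15, against -0.02 over all 12393 genes and -0.05 over the 6845 genes in the members' range of mean intensity. Over all 17 probe sets, 14 were lower, or 82.4%, against 54.2% of all probe sets tested. Centring each array on its median adds the same amount to the difference of every gene, and the median of all genes was then 0.03. On that scale 6 of the 10 genes and 11 of the 17 probe sets were lower, against 43.7% of all genes and 43.6% of all probe sets, and the members' median was -0.09. Without wild-type replicates 2 and 3, 8 of the 10 genes were lower, with a median of -0.18 against -0.02 over all genes. The probe sets that moved most in that fit, beside Cx3cr1 1450019_at, were Ccr2 1421186_at at -0.79, Ccr2 1421187_at at -0.59, Fcer1g at -0.69 and Aif1 at 0.44.

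The members did not follow a single pattern over the arrays. Taking each gene by its brightest probe set, mutant replicate 3 was the lowest array for 5 of the 10 genes, and for 20.7% of all genes. Mutant replicate 1 was the highest for 4, Csf1r, Tyrobp, Cd68 and Aif1, and for 23.8% of all genes, yet it was the lowest for Ccr2 and Laptm5, as for 15.0% of all genes. In those 4 genes mutant replicate 1 lay 0.37 to 0.45 above the gene's mean on the log2 scale. The members' median deviation from each gene's mean was -0.02, -0.14 and -0.27 on the mutant arrays, against 0.09, 0.17 and 0.07 on the wild-type arrays. The same median over all genes lay between -0.04 and 0.04 on all 6 arrays. Mutant replicate 3 was thus farthest from the gene means for these genes.

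**Figure D3:**
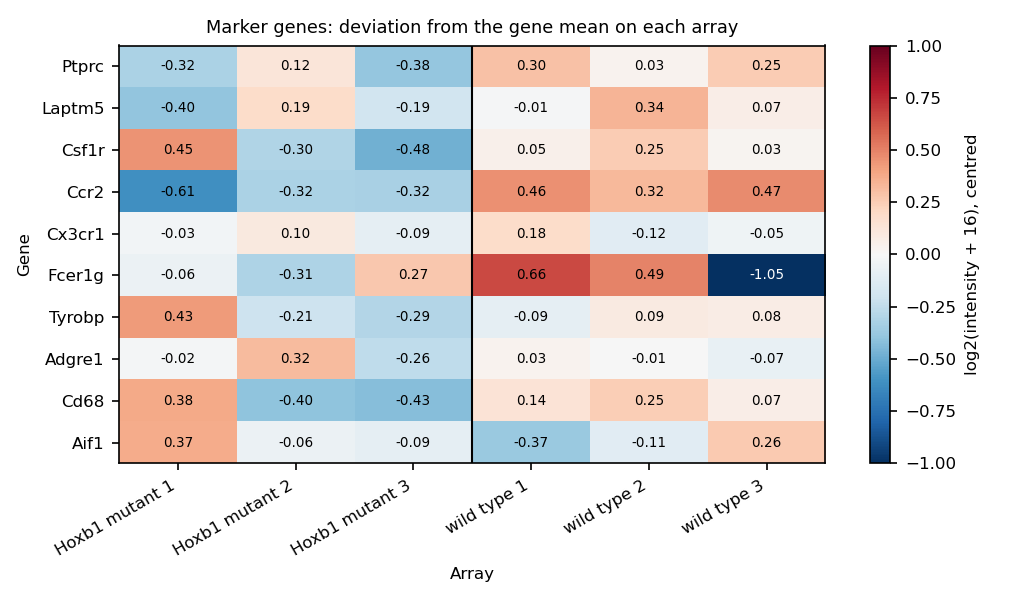
Deviation of each marker gene (brightest probe set) from its own mean on each array, in log2(intensity + 16), with Hoxb1 mutant arrays on the left. Csf1r, Tyrobp, Cd68 and Aif1 are highest on mutant replicate 1, and 5 of the 10 genes are lowest on mutant replicate 3.

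The ligands of the members' receptors were measured on the same arrays and 0 of 6 passed the threshold. Csf1, the macrophage growth factor, averaged 212 ± 26.5 in mutants and 225 ± 33.7 in wild type in its brightest probe set, 1460220_a_at (SD, n = 3, log2 difference -0.08, SE 0.15). A dim probe set of Csf1, 1425155_x_at, gave 9.75, 53.0 and 9.83 in mutants against 71.2, 58.2 and 70.6 in wild type, without overlap. Its log2 difference was -1.20 (SE 0.38, limma adjusted p = 0.833), and the other probe sets of the gene gave -0.05 and 0.06. Il34, the second ligand of Csf1r, averaged 69.3 ± 5.67 in mutants and 65.2 ± 10.1 in wild type. Ccl2, the ligand of Ccr2, averaged 77.6 ± 34.1 in mutants and 69.1 ± 20.8 in wild type. Cx3cl1, which encodes fractalkine, gave 153, 152 and 107 in mutants against 178, 186 and 155 in wild type, without overlap (1415803_at, log2 difference -0.32, SE 0.16, limma adjusted p = 0.833). Its other probe sets, 1415804_at and 1421610_at, overlapped between groups and stayed below the bacterial 95th percentile on every array. They gave log2 differences of -0.11 and -0.22 (SE 0.11 and 0.32).

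Spi1 encodes PU.1, the transcription factor on which macrophage development rests, and many promoters of macrophage genes hold its purine-rich core. It gave 106, 109 and 104 in mutants against 114, 147 and 94.2 in wild type, with a log2 difference of -0.12 (SE 0.16). The sequence upstream of member genes is shown so that the presence of this core can be seen beside their values. RefSeq promoter windows of mouse assembly GRCm38.p6 matched 7 of the members by symbol, and Csf1r, Tyrobp and Adgre1 had none. In the 250 bases before the start site, the core GAGGAA was searched on both strands, where the other strand reads TTCCTC, and no other motif was searched. It was found in 4 of the 8 windows of these genes, or 50%, and in 23.3% of all 32851 windows of this length. Each sequence runs 5′ to 3′ on the strand of its gene and ends at the base before the start site, with the core in capitals.
Ptprc, chr1:138175306-138175555, minus strand: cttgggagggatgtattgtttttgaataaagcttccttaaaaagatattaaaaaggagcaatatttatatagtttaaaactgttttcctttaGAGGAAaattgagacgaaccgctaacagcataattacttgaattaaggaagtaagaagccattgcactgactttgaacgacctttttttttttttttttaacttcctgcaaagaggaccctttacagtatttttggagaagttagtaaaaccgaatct
Cd68, chr11:69666171-69666420, minus strand: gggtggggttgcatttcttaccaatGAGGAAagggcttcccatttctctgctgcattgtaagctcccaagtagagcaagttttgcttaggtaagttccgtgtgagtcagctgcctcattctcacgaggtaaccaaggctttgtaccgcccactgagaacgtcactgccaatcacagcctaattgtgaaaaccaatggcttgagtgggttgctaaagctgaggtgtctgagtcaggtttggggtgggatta
Laptm5, chr4:130913066-130913315, plus strand: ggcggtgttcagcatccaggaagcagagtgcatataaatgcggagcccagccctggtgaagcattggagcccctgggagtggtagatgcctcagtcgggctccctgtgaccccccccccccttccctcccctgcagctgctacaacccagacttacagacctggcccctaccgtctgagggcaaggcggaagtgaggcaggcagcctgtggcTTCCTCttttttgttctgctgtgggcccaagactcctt
Aif1, chr17:35176053-35176302, minus strand: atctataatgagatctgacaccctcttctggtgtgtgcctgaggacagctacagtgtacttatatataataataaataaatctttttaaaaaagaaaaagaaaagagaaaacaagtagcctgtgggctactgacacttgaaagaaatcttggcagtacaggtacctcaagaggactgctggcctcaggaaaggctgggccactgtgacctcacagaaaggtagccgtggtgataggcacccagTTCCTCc
The core begins 158 bases before the start site in Ptprc, 225 in Cd68, 38 in Laptm5 and 7 in Aif1. It lies on the strand of the gene in Ptprc and Cd68 and on the other strand in Laptm5 and Aif1. The genes with a match gave log2 differences of -0.39, -0.30, -0.27 and 0.15. Those with a window but no match gave -0.84 in Ccr2, -0.06 in Fcer1g and -0.01 in Cx3cr1. A match of letters does not show that the factor binds there, and a second listed start of Ptprc had none in its window.

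Other genes of myeloid cells, from lists of their transcription factors, signalling proteins, surface receptors, effectors and pan-leukocyte proteins, were described in the same way. Of 92 genes listed, 83 were measured, 0 passed the threshold, and 64 had a lower mean in mutants, 77.1% against 54.5% of all genes. Their median log2 difference was -0.17. All 6 arrays were above the bacterial 95th percentile in 43 of the 83, or 51.8%, against 73.1% of all genes. No array was above it in 13. Of the 83, 2 that were lower and 2 that were higher reached an unadjusted p under 0.05, against 5.46% of all genes (3.76% lower and 1.7% higher). Without mutant replicate 3, 53 of the 83 were lower, with a median of -0.07, against 6444 of all 12393 genes, or 52.0%. Without mutant replicate 1, 67 of the 83 were lower, with a median of -0.24, against 7346 of all 12393 genes, or 59.3%. Centred on array medians, 56 of the 83 were lower, with a median of -0.12. The same held for 5411 of all 12393 genes, or 43.7%, with a median of 0.03. The list medians on the arrays were 0.16, -0.08 and -0.20 in mutants against 0.06, 0.15 and -0.03 in wild type, so mutant replicate 1 was the highest array and mutant replicate 3 the lowest.

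Among surface receptors, Fcgr3, Fcgr1 and Trem2 were the 3 of smallest p, a choice that favours large differences. Fcgr3, an activating Fc receptor whose signal passes through Fcer1g, gave 74.5, 90.0 and 59.2 in mutants against 101, 136 and 105 in wild type. The groups did not overlap (log2 difference -0.52, SE 0.17, limma adjusted p = 0.833). The high-affinity Fc receptor Fcgr1 averaged 73.6 ± 18.2 in mutants and 95.8 ± 5.40 in wild type. Trem2, which signals through Tyrobp, gave 105, 70.0 and 75.5 in mutants against 70.6, 25.0 and 21.2 in wild type in 1421226_at (log2 difference 0.95, SE 0.33, limma adjusted p = 0.833). The low values were again those of wild-type replicates 2 and 3, whose 18S signal was high, and a second probe set of Trem2 stayed below the background measure throughout. Itgb2, the integrin beta chain of leukocytes, averaged 68.4 ± 20.6 in mutants and 98.0 ± 23.5 in wild type, and its partner Itgam, the alpha chain known as CD11b, had no value above the bacterial 95th percentile.

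The remaining myeloid genes were likewise chosen as the 3 of smallest p in each list. Cd53, a tetraspanin of leukocytes, averaged 84.7 ± 19.1 in mutants and 122 ± 22.4 in wild type (log2 difference -0.46, SE 0.19, limma adjusted p = 0.833). Coro1a, an actin-binding protein of leukocytes, averaged 364 ± 32.6 in mutants and 465 ± 84.0 in wild type in its brightest probe set, and 161 ± 20.6 and 157 ± 32.3 in the next. Cd48, in the other direction, averaged 27.7 ± 3.05 in mutants and 12.2 ± 5.26 in wild type, with every value under the bacterial 95th percentile. The kinase Fgr averaged 162 ± 34.7 in mutants and 205 ± 16.2 in wild type, the adaptor Blnk 77.9 ± 14.7 and 93.8 ± 6.33. The complement gene C1qb averaged 277 ± 22.7 in mutants and 357 ± 76.7 in wild type in 1434366_x_at, and 222 ± 59.6 and 227 ± 37.7 in 1417063_at. Runx1, a haematopoietic transcription factor, averaged 126 ± 28.4 in mutants and 158 ± 17.2 in wild type in its brightest probe set, 1452531_at. Its other probe sets went both ways: 1452530_a_at gave a log2 difference of -0.05 and 1422865_at one of 0.24, while 1422864_at, below the bacterial 95th percentile throughout, gave -0.79. Maf, Tfec, Vav1, C1qa and Gpnmb did not exceed the bacterial 95th percentile on any array.

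Of 9 microglia-enriched genes 6 were measured, and 5 had a lower mean in mutants with a median log2 difference of -0.13. The median was -0.04 without mutant replicate 2 and -0.22 without mutant replicate 1. P2ry12, a purine receptor of microglia, averaged 63.0 ± 15.2 in mutants and 72.9 ± 1.67 in wild type, with 1 mutant array and 3 wild-type arrays above the bacterial 95th percentile. Tmem119, which bone-forming cells also express, averaged 746 ± 46.4 in mutants and 830.0 ± 49.3 in wild type. Gpr34 stayed below the bacterial 95th percentile throughout.

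**Figure D4:**
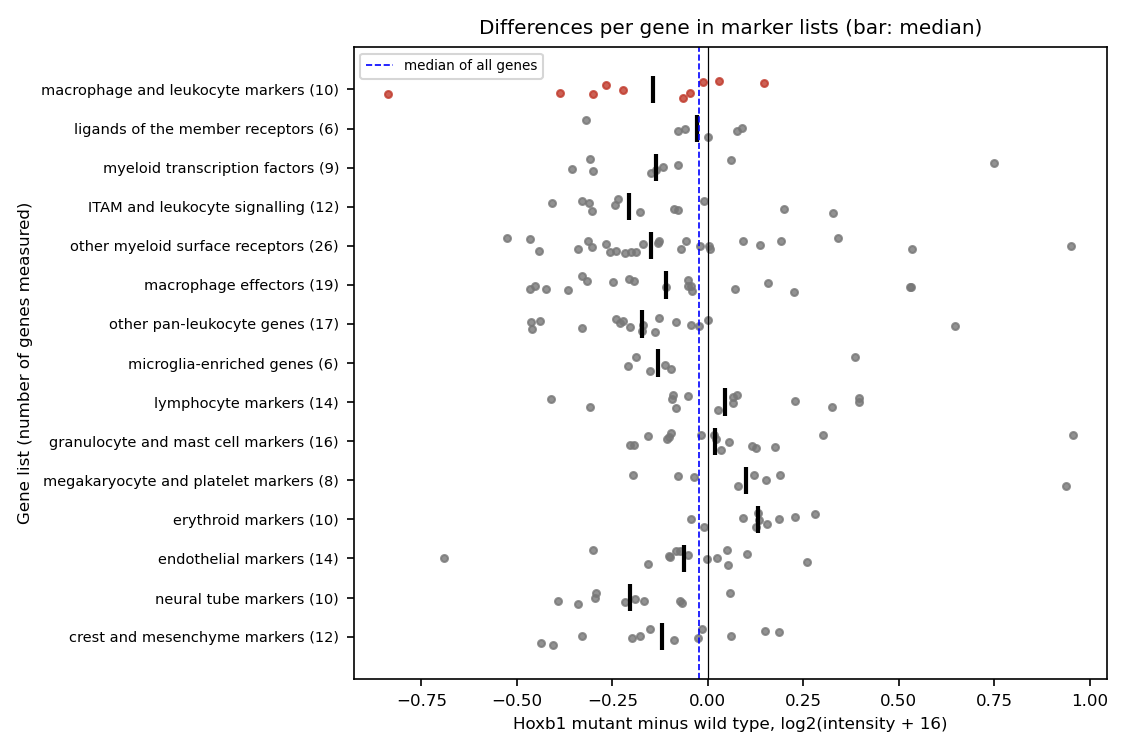
Difference between Hoxb1 mutant and wild type for each gene of the marker lists, by its brightest probe set, on the scale of log2(intensity + 16), with a bar at each list's median. The markers of macrophages and leukocytes have a median of -0.14 and neural tube markers -0.20, against -0.02 over all genes (dashed line).

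Markers of the other cells of the dissected tissue differed in median from list to list. For vascular cells, 14 endothelial genes had a median log2 difference of -0.06, and 13 of the 14 were above background on all arrays. Their summed intensity was 4583 to 4896 in mutants against 4753 to 5072 in wild type, and their lowest value was 29.9. The 10 erythroid genes had a median of 0.13 and summed intensities of 37672 to 42015 in mutants against 34231 to 39626 in wild type. Neural tube markers had a median of -0.20, with 9 of 10 lower in mutants, and summed intensities of 8571 to 11128 in mutants against 10497 to 12311 in wild type. Crest and mesenchyme markers had a median of -0.12, with summed intensities of 13968 to 14748 in mutants against 14936 to 16389 in wild type, without overlap. Among single probe sets, the groups did not overlap in 12% of all tested, and no such share was computed for list sums. Centred on array medians, 7 of the 12 crest and mesenchyme genes were lower, with a median of -0.07, against 43.7% of all genes. The list medians moved with single arrays. Without mutant replicate 3 the neural tube median was -0.11, with 7 of 10 lower, and the erythroid median 0.07. Without mutant replicate 1 the erythroid median was 0.22 and the crest and mesenchyme median -0.07. Without wild-type replicate 3 the crest and mesenchyme median was -0.04. The endothelial median ran from -0.09 to -0.03 over the 6 fits that left out 1 array each. Without wild-type replicates 2 and 3 together the neural tube median was -0.12 and the erythroid median 0.06. The 10 member genes summed to 1392 to 1930.4 in mutants against 1741 to 1963 in wild type, with overlap. Mutant replicate 3, lowest for the members, was also lowest for the neural tube genes, at -0.33 from their gene means against 0.25 on wild-type replicate 3. The part of tissue composition in the members' values was not tested.

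**Figure D5:**
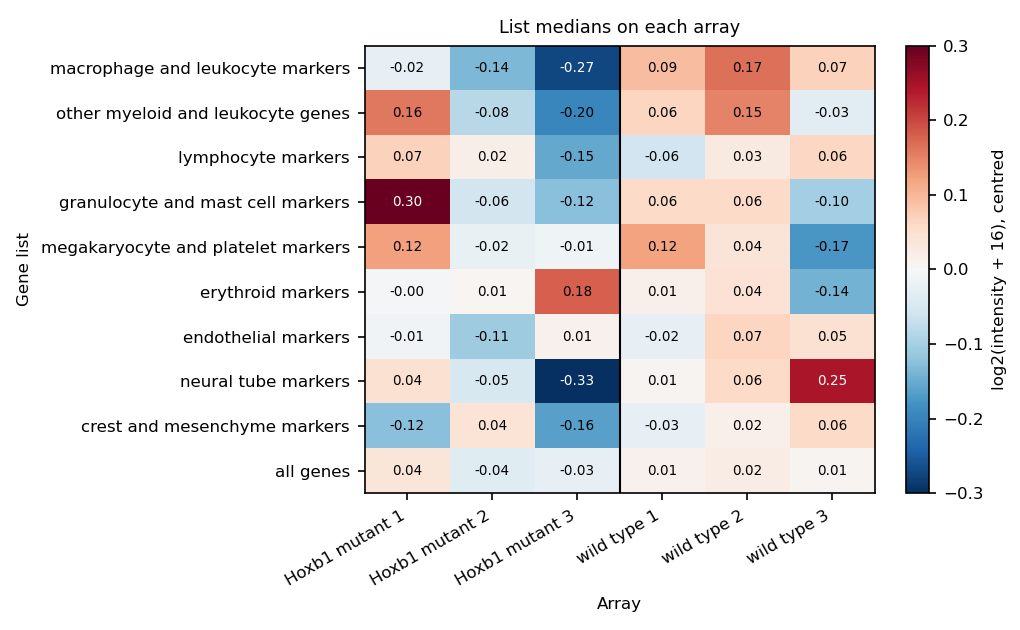
Median deviation from each gene's own mean on each array, in log2(intensity + 16), for the macrophage and leukocyte markers, other marker lists and all genes, with Hoxb1 mutant arrays on the left. Mutant replicate 3 is lowest for the macrophage and leukocyte markers (-0.27) and for the neural tube markers (-0.33), and close to 0 for all genes.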

How the data were processed

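Total RNA of 6 pools was hybridised to Affymetrix GeneChip 430A arrays, per the labels. The authors deposited 1 intensity per probe set and array. The package affy is named in the submitters' processing notes, without a version. Neither the summary algorithm nor any detection call is stated there. The trimmed mean of all values, with 2% left out at each end, was 500.0 on every array, so the deposited values share a scaling target. The equal means do not show whether another normalization came before. No further normalization was applied here. Of 22626 probe sets tested, 20380 name 1 gene, and 64 control probe sets were left out. Symbols came from the platform annotation, checked by Entrez identifier against RefSeq.

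Values were tested as log2(intensity + 16) with limma 3.58.1 in R 4.3.3 (2-sided, no covariate, Benjamini-Hochberg adjustment over all probe sets), and the fit was tested on simulated data. For lists, the brightest probe set stood for each gene. Named genes were all member probe sets, Hoxb1, Spi1, Itgam, Itgb2, Csf1, Il34, Ccl2 and Cx3cl1. The others were taken from the 3 of smallest p per list. Members, lists and alternatives were chosen with earlier results of these data known. Precision is limited by having 3 arrays per group, and the standard error of a difference had a median of 0.21 over members and 0.16 over all probe sets.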

Additional observations from a re-analysis of the deposited data

How the results depend on the processing

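The count of member probe sets past the adjusted threshold was 0 in limma under all 16 other settings of the fit, where 1 to 4 of them had an unadjusted p under 0.05 and the lowest adjusted p was 0.269. Over all probe sets the count was 0 with the settings used throughout, where 1303 had an unadjusted p under 0.05. It was 3 with quantile normalization, 4 with median centring, 2 without the third of probe sets that was dimmest, 3 with trend and robust settings, 4 with array weights, 4 at an adjusted p under 0.1, and 0 without each array in turn. Same-numbered arrays share a number, and the labels do not state whether they were paired. Their deviations from the group means correlated at 0.05, -0.02 and 0.04, which does not decide that question. With the replicate number as a block, 0 probe sets passed over the whole table and 0 among members, and 1361 had an unadjusted p under 0.05. The members' median log2 difference of -0.14 kept its sign under every setting and ran from -0.28 without wild-type replicate 3 to -0.10 without mutant replicate 3 when single arrays were left out. Of the 102 member values, 75 were above the bacterial 95th percentile and 48 above the highest bacterial value. In 263 values of single member probe sets under other settings, 232 kept their sign, but part of that count was fixed in advance. The trend and robust settings and the replicate block gave each member probe set the same difference as the settings used throughout. Leaving out the dimmest probe sets did so for the 8 member probe sets that remained. Those signs could not change. The members' median was likewise unchanged by the trend and robust settings and by the replicate block. With quantile normalization and with median centring, Cx3cr1 1450020_at gave 0.041 and 0.040, Laptm5 1436905_x_at 0.041 and 0.041, and Tyrobp 0.023 and 0.0060. With the 18S signal as a covariate and without both wild-type arrays of high 18S signal, Cx3cr1 1450019_at gave -0.59 and -0.75, Adgre1 -0.021 and -0.019, Laptm5 1436905_x_at 0.18 and 0.17, and Tyrobp 0.11 and 0.069. Leaving out single arrays, the difference ran from -0.43 to 0.21 in Ccr2 1421186_at, -0.46 to 0.13 in Ccr2 1421187_at, -0.076 to 0.075 in Cx3cr1 1450020_at, -0.12 to 0.16 in Adgre1, -0.0013 to 0.32 in Aif1, -0.35 to 0.0023 in Laptm5 1417721_s_at, -0.10 to 0.10 in Laptm5 1436905_x_at, -0.61 to 0.25 in Fcer1g and -0.27 to 0.085 in Tyrobp. The causes of these changes were not tested.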

Other observations

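Markers of other blood lineages were measured beside those of macrophages, and 0 of them passed the limma threshold after adjustment. Of 14 lymphocyte genes measured, 6 had a lower mean in mutants, the median log2 difference was 0.05, and 5 never exceeded the bacterial 95th percentile. At unadjusted p under 0.05, 2 of the 14 were lower, against 3.76% of all genes. Without mutant replicate 1 the direction turned, with 9 lower and a median of -0.05. Blk, a kinase of B cells, gave 114, 126 and 104 in mutants against 161, 134 and 142 in wild type, without overlap (log2 difference -0.31, SE 0.13, adjusted p = 0.833). Rag2, a recombinase of lymphocyte precursors, was below the bacterial 95th percentile on every array. Zap70, a kinase of T cells, averaged 800.0 ± 198 in mutants and 593 ± 30.8 in wild type in 1439749_at, while its dimmer 1422701_at differed in the other direction, at 29.5 ± 4.43 and 46.6 ± 13.5. Which cells gave these signals was not tested.

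Of 16 granulocyte and mast cell genes, 9 had a higher mean in mutants, with a median log2 difference of 0.02. That direction did not hold without mutant replicate 1, where 12 were lower (median -0.08), without wild-type replicate 3, where 10 were lower (-0.04), or with array weights, where 11 were lower (-0.03). Their list median was highest on mutant replicate 1, at 0.30 above the gene means. That array was also highest for Csf1r, Tyrobp, Cd68 and Aif1 by their brightest probe sets. Ctsg, a granule protease, gave 68.2, 20.0 and 38.2 in mutants against 11.8, 12.4 and 12.6 in wild type, without overlap, and 1 of the 6 arrays was above the bacterial 95th percentile. Ms4a2 and Kit were above it on all 6 arrays. Ms4a2 averaged 111 ± 22.7 in mutants and 87.2 ± 17.6 in wild type (log2 difference 0.30, SE 0.18). Kit averaged 337 ± 43.0 in mutants and 390 ± 73.0 in wild type in 1452514_a_at (log2 difference -0.19, SE 0.17), and 1415900_a_at gave -0.21. Of 8 megakaryocyte genes, 5 had a higher mean in mutants, with a median log2 difference of 0.10. This turned without wild-type replicates 2 and 3, the arrays of high 18S signal, where 7 of 8 were lower (median -0.12), without wild-type replicate 3 alone (6 lower, -0.06) and with the 18S signal as a covariate (6 lower, -0.08). Gp9, a platelet receptor subunit, gave 29.5, 77.2 and 102 in mutants against 26.0, 25.2 and 25.4 in wild type, without overlap (log2 difference 0.94, SE 0.33, adjusted p = 0.833), and only mutant replicates 2 and 3 were above the bacterial 95th percentile. Itgb3, an integrin chain of platelets, averaged 12.02 ± 1.48 in mutants and 16.1 ± 0.946 in wild type, without overlap and with no value above that level. Pf4, the platelet chemokine, averaged 608 ± 54.9 in mutants and 552 ± 108 in wild type.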
